A study of Homo sapiens with 4 samples.

Results

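The anti-apoptotic BCL-2 genes examined were BCL2L1, MCL1, BCL2 and BCL2L2, 4 of the 60554 genes of a count table of 4 RNA libraries. They were chosen by name, with BCL2L1 as the known target of miR-491-5p in this cell line and the other 3 as its functional partners, and found in the table by their position on GRCh38. All 4 passed the minimum of a mean normalised count of 50 that 12662 genes met. The RNA came from IGROV1-R10, a derivative of the human ovarian carcinoma line IGROV1. The cells had been transfected at 60 nM with a biotin-carrying duplex of miR-491-5p or of a worm miRNA, which served as the control and which the design text calls cel-miR-65. Each transfection gave an input library, from 10% of a lysate cleared of nuclei, and a pull-down library, from RNA that stayed on streptavidin beads through 4 h of binding and 5 washes. Each of these 4 groups was 1 library, into which the RNA of 3 independent experiments had been pooled, so the spread between experiments cannot be seen and no difference between the miRNAs has a p-value.

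BCL-2 family proteins decide at the outer mitochondrial membrane whether a cell releases cytochrome c and activates caspases. BCL-xL (encoded by BCL2L1), MCL-1, BCL-2 and BCL-w (encoded by BCL2L2) hold the pore-forming proteins BAX and BAK and the BH3-only proteins that trigger them, and each can make up in part for the loss of another. Ovarian carcinoma cells commonly depend on BCL-xL and MCL-1 together, and MCL-1 differs from the others in the rapid turnover of both its mRNA and its protein. A miRNA guides Argonaute to mRNAs mainly through its seed, bases 2 to 8, and the mRNAs it binds are repressed and often lost, so a bound mRNA can be high on the beads and low in the input.

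The mature sequence of the transfected miRNA is shown because the capture is directed by it, with the seed in capitals, 5′ to 3′, as RefSeq gives it (GRCh38.p14, chromosome 9, 20716120 to 20716141, plus strand).
miR-491-5p: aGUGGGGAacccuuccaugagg
Of 2370 human mature miRNA names in that table, miR-491-5p alone carried this seed, whose complement reads UCCCCAC. The transcripts of the 4 genes were not searched for that complement here.

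The level that the table gives for each gene comes from different amounts of its exon sequence. Reads were counted without regard to strand, and reads on bases that belong to several genes were left out, per the file headers. BCL2L1 (ENSG00000171552, chromosome 20, 31664452 to 31723989, minus strand in GENCODE release 24 on hg38) has 3314 exon bases in 4 blocks, and 1424 of them (43.0%) are shared with an antisense gene, ENSG00000281376. The shared bases fill the 2 middle blocks, so the counts of BCL2L1 come from the block at the 3′ end, of 1635 bases, and the block at the 5′ end, of 255 bases. BCL2L2 (ENSG00000129473, chromosome 14, 23298790 to 23311759, plus strand) has 4189 exon bases, of which 1019 (24.3%) are shared with the readthrough gene BCL2L2-PABPN1 or with PPP1R3E, and its 3′ end block of 2944 bases is free. MCL1 (ENSG00000143384, chromosome 1, 150574551 to 150579738, minus strand) shares 2 of 4371 exon bases, and BCL2 (ENSG00000171791, chromosome 18, 63123346 to 63320128, minus strand) shares 0 of 11765. The 3′ end block thus holds most of the bases that can be counted for BCL2L1 and BCL2L2, but the table does not give reads by block.

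**Figure D1:**
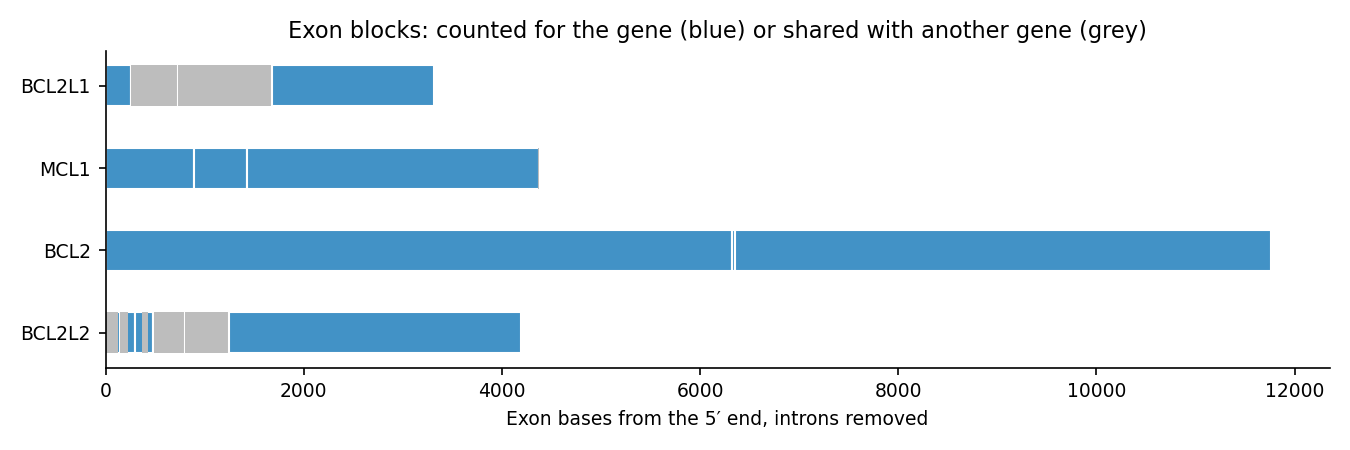
Exon blocks of the 4 genes laid end to end from the 5′ end, in bases, with introns removed and white lines between blocks. Blue bases are counted for the gene and grey bases are shared with another gene of the table, 1424 of 3314 for BCL2L1 and 1019 of 4189 for BCL2L2.

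The libraries held 47679684 to 62582646 counts. All intervals are 95% intervals for counting error alone, and since reads carry no molecular identifiers and several can come from 1 molecule, even that error can be larger. Normalised counts are shares of a library's RNA and carry no information on how much RNA the beads held in all. Of 13 markers of ovarian carcinoma epithelium 13 were in the table, and none was at 0 in any library. Their summed normalised count was lowest on the miR-491-5p beads, at 88490, and highest in the control input, at 155200. MSLN had only 9 to 14 counts. Of 9 hepatocyte markers in the table, the control input held 2677 counts in all. The other input held 12, with 5 of the 9 at 0 (HP, FGA, FGB, ORM1 and APOH), and the beads of miR-491-5p and the control held 30 and 22, with 4 and 3 at 0. The 7 fibroblast markers summed to 611 counts there, to 297 in the other input and to 89 and 78 on the beads, and 6 leukocyte markers summed to 18 to 55 counts a library. The input ratio, the control bead ratio and the enrichment below use the control input, and the part of these transcripts in them was not tested. The pull-down ratio does not use that library.

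Per kilobase of unshared exon, the 4 genes kept the same order in all 4 libraries. MCL1 was highest, with 6376 and 6865 normalised counts per kilobase in the inputs of miR-491-5p and the control, and 6610 and 13545 on their beads. In the same order BCL2L1 followed with 2320, 3350, 4077 and 2434, then BCL2L2 with 295, 240, 271 and 308, and BCL2 with 3.91, 7.43, 4.67 and 13.4. No counting interval of one gene overlapped that of a neighbour in this order in any library. Over all exon bases in place of unshared ones, the mean level of BCL2L1 over the 4 libraries was 1737 per kilobase, and the order was the same. Most reads of the 4 genes thus came from MCL1 and BCL2L1, and BCL2 had only 44 to 178.

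**Figure D2:**
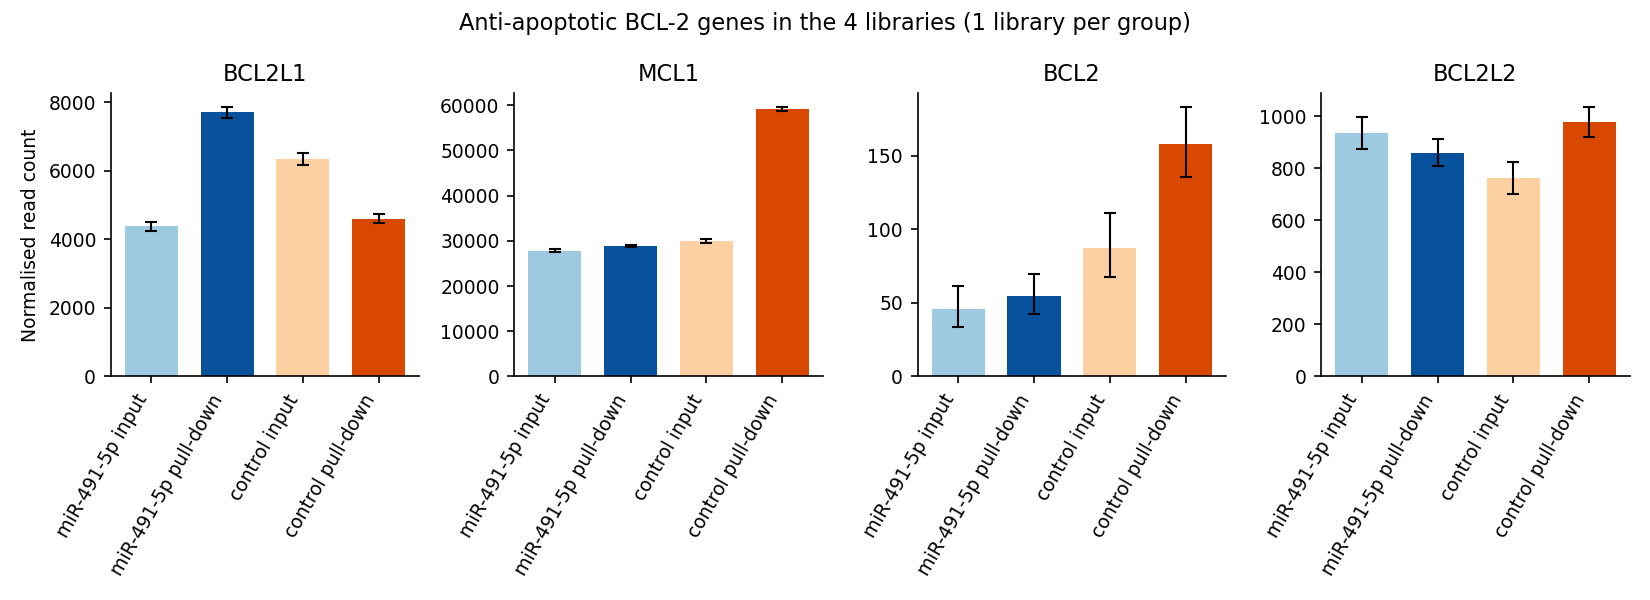
Normalised read count of each gene (linear axis from 0, 1 panel per gene) in the 4 libraries, with bars for the single library of each group and error bars for the exact 95% Poisson interval. BCL2L1 is highest on the miR-491-5p beads, and MCL1 and BCL2 on those of the control.

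BCL2L1, the gene for BCL-xL, was highest on the miR-491-5p beads. Its normalised count was 7706 there (7552 to 7862), against 4600 on the control beads. The miR-491-5p input had 4385 and the control input 6332 (6156 to 6511). The 2 inputs and the 2 pull-downs thus stood in opposite orders. On the log2 scale of normalised counts plus 1, which is used for all ratios, the miR-491-5p pull-down over the control pull-down, its pull-down ratio, was 0.74 (0.70 to 0.79). The same quotient of the inputs, its input ratio, was -0.53 (-0.59 to -0.47), a 1.44-fold lower level with miR-491-5p. In bulk RNA, fewer cells carrying an mRNA and less of it per cell cannot be told apart. The input ratio of BCL2L1 lay above that of 3.98% of tested genes and its pull-down ratio above that of 94.2%.

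The enrichment of the design text is the pull-down ratio over the input ratio, and for BCL2L1 it was 1.27 (1.20 to 1.35), above that of 97.8% of tested genes. A gene was called when it differed by at least 2-fold with an interval that excluded 0. By this rule 4.46% of tested genes were called enriched and 5.32% depleted, and of the 4 genes here 1, BCL2L1, was enriched and 0 were depleted. Neither part of the BCL2L1 enrichment reached 2-fold alone. Both a pull-down ratio above 0 and an input ratio below 0, each with an interval excluding 0, were seen in 1593 of 12662 genes (12.6%).

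Within each transfection, BCL2L1 was above its input on the miR-491-5p beads, at 0.81 (0.76 to 0.87), and below its input on the control beads, at -0.46 (-0.52 to -0.40). Among tested genes 705 (5.57%) had this pair of signs with both intervals excluding 0, and 494 (3.90%) also had an input ratio whose interval lay below 0. The medians of all genes were -0.15 on either kind of bead, so BCL2L1 stood above the median gene with miR-491-5p and below it with the control. Total counts, which raised the median gene by 0.32 on the miR-491-5p beads and by 0.14 on the control beads, gave BCL2L1 1.13, past 2-fold, and -0.32. With total counts 10.1% of all genes were called higher on the miR-491-5p beads. In relation to all genes the control bead value of BCL2L1 was not extreme, since 33.2% of genes lay below it.

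The transcripts that overlap BCL2L1 were examined because reads of either strand could be assigned to them. ENSG00000281376, whose exon shares the middle blocks, keeps 479 bases of its own, and these held 99 and 106 counts in the inputs of miR-491-5p and the control, and 320 and 187 on their beads. Its enrichment was 1.03 (0.56 to 1.50), with a pull-down ratio of 0.64 (0.38 to 0.90) and an input ratio of -0.39, whose interval reached 0.00. BCL2L1-AS1 (ENSG00000236559) lies in an intron of BCL2L1 on the plus strand and shares no exon base with it. It had 18, 24, 154 and 76 counts in that order and an enrichment of 1.56 (0.60 to 2.52). Unlike BCL2L1, it was above its input on the control beads too, at 1.11 (0.45 to 1.76). Without strand, reads of unspliced BCL2L1 and of these 2 genes cannot be told apart, and the name of BCL2L1-AS1 rests on a loose match of positions.

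MCL1, the gene for the short-lived protein MCL-1, stood out on the control beads. Its normalised counts were close together in both inputs, with 27858 (miR-491-5p) and 29993 (control), and on the miR-491-5p beads, at 28880. The control beads had 59176 (58728 to 59627). The 3 lower libraries lay within 1.08-fold of each other, and the control beads stood 1.97-fold above the next. MCL1 was 0.98 (0.96 to 1.00) above its input with the control and 0.05 (0.03 to 0.07) with miR-491-5p. Its pull-down ratio was -1.03 (-1.05 to -1.02), and 97.1% of tested genes had a higher one. Scaling by total counts made this ratio -0.88, so the call was lost. The control bead value, just under 2-fold, passed it with TMM (1.02), with size factors from well-covered rows (1.10) and with total counts (1.12). These settings called 9.06%, 10.5% and 10.8% of all genes higher on the control beads.

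In the inputs MCL1 differed little, at -0.11 (-0.13 to -0.08), and 32.5% of genes lay lower. Its enrichment was -0.93 (-0.96 to -0.90), and the library in which MCL1 stood apart was the control pull-down. ADAMTSL4-AS1, which shares 2 bases with the 3′ end of MCL1, had 4 to 58 counts in a library.

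BCL2, the founding member of the family, was measured at low depth. With miR-491-5p it had 44 counts in the input and 68 on the beads, and with the control 68 and 178. After normalisation these were 46.0, 55.0, 87.4 and 158. As with MCL1, the control pull-down was highest, and both miR-491-5p libraries were below both control libraries. The pull-down ratio was -1.51 (-1.91 to -1.10) and the input ratio -0.91 (-1.46 to -0.37), the latter above that of only 0.774% of tested genes. Low counts alone spread such ratios more widely, and the median counting standard error of all genes in the inputs was 0.0562, against 0.278 for BCL2. The enrichment of -0.59 had an interval from -1.27 to 0.08, so at this depth no difference from 0 was detectable. BCL2 was above its input on the control beads, at 0.85 (0.45 to 1.25), and had 0.25 (-0.29 to 0.80) on the miR-491-5p beads. Total counts turned the latter to 0.57 (0.02 to 1.11), an interval above 0.

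BCL2L2, the gene for BCL-w, varied least. Its normalised counts were 935 in the input and 860 on the beads with miR-491-5p, and 762 and 977 with the control. It alone of the 4 genes had an input ratio above 0, at 0.30 (0.15 to 0.44), and its pull-down ratio was -0.18 (-0.30 to -0.06). The enrichment was -0.48 (-0.67 to -0.29), and 18.5% of genes lay lower. On the miR-491-5p beads it stood at -0.12 (-0.25 to 0.01) relative to its input, and on the control beads at 0.36 (0.21 to 0.50). Total counts turned the former to 0.20 (0.07 to 0.33), an interval above 0, and brought the pull-down ratio to -0.028 (-0.15 to 0.09), an interval that includes 0. The readthrough gene BCL2L2-PABPN1 had 2 to 9 reads, too few for their addition to move a ratio beyond its interval. Reads on the shared bases were counted for neither gene. BCL2L2 is named by an end that matches RefSeq, since its start differs.

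In the pull-downs, 3.17% of tested genes were called lower with miR-491-5p and 2.50% higher. Of the 4 genes 2, MCL1 and BCL2, were called lower and 0 higher. None of the 4 was called in the inputs, where 1.24% of genes were called in either direction, or on the miR-491-5p or control beads, where 10.3% and 18.6% were. The medians of the 4 genes were -0.54 for enrichment, -0.61 for the pull-down ratio and -0.32 for the input ratio, where all genes had 0.00, 0.01 and -0.01.

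**Figure D3:**
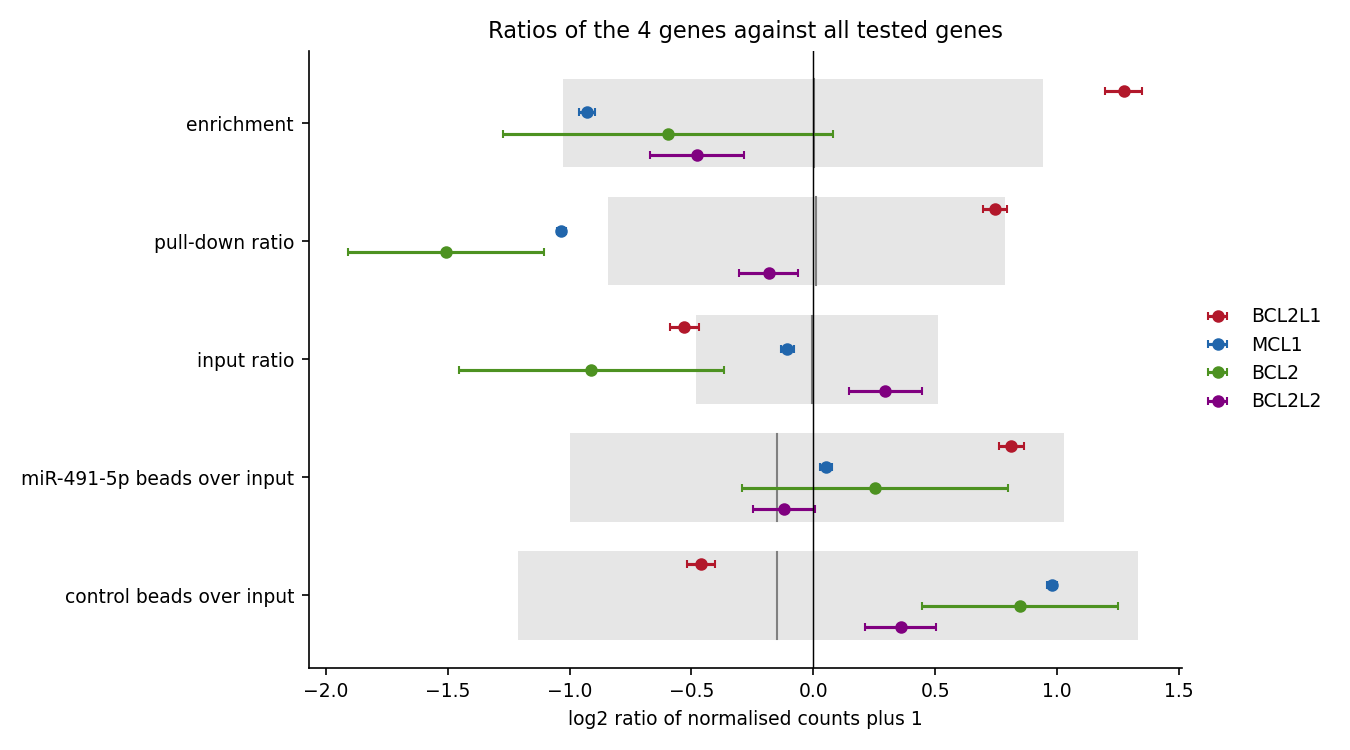
log2 ratios of the 4 genes for the 5 comparisons, with 95% counting intervals. Grey bands span the 5th to 95th percentile of 12662 tested genes and grey lines mark their median, and BCL2L1 at 1.27 lies right of the enrichment band, which ends at 0.94.

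BCL2L1 was then set against each partner in the same libraries, where scaling factors cancel. Its enrichment exceeded that of MCL1 by 2.20 (2.12 to 2.29), that of BCL2 by 1.87 (1.19 to 2.55) and that of BCL2L2 by 1.75 (1.54 to 1.96). The partners differed less among themselves. MCL1 minus BCL2L2 was -0.45 (-0.65 to -0.25). MCL1 minus BCL2 was -0.33 (-1.01 to 0.34) and BCL2 minus BCL2L2 -0.12 (-0.82 to 0.59), both within counting error.

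The contrast came from both kinds of bead. On the miR-491-5p beads, relative to input, BCL2L1 exceeded MCL1 by 0.76 (0.70 to 0.82), BCL2L2 by 0.93 (0.79 to 1.07) and BCL2 by 0.56 (0.01 to 1.11). On the control beads BCL2L1 was the lower gene, and its difference was -1.44 (-1.50 to -1.38) from MCL1, -1.31 (-1.71 to -0.90) from BCL2 and -0.82 (-0.97 to -0.66) from BCL2L2. The gap to MCL1 was thus wider on the control beads than on the miR-491-5p beads, in the opposite direction. In the input ratio BCL2L1 was also lower, with a difference of -0.42 (-0.49 to -0.36) from MCL1 and -0.83 (-0.99 to -0.66) from BCL2L2. Its difference of 0.38 from BCL2 had an interval from -0.17 to 0.93.

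Counted directly, each BCL2L1 read was accompanied by 6.35 MCL1 reads (6.15 to 6.56) in the input of miR-491-5p and 4.74 (4.59 to 4.88) in that of the control. On the beads the ratio was 3.75 with miR-491-5p (3.66 to 3.83) and 12.9 with the control (12.5 to 13.2). The ratio went down from input to beads with miR-491-5p and up with the control. Of all reads of the 4 genes, BCL2L1 made up 13.2% (12.8 to 13.6, Wilson) of the input and 20.5% (20.2 to 20.9) of the bead reads with miR-491-5p. With the control these shares were 17.0% (16.6 to 17.5) and 7.09% (6.90 to 7.28). MCL1 made up 83.8%, 77.0%, 80.7% and 91.2% in the same order.

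**Figure D4:**
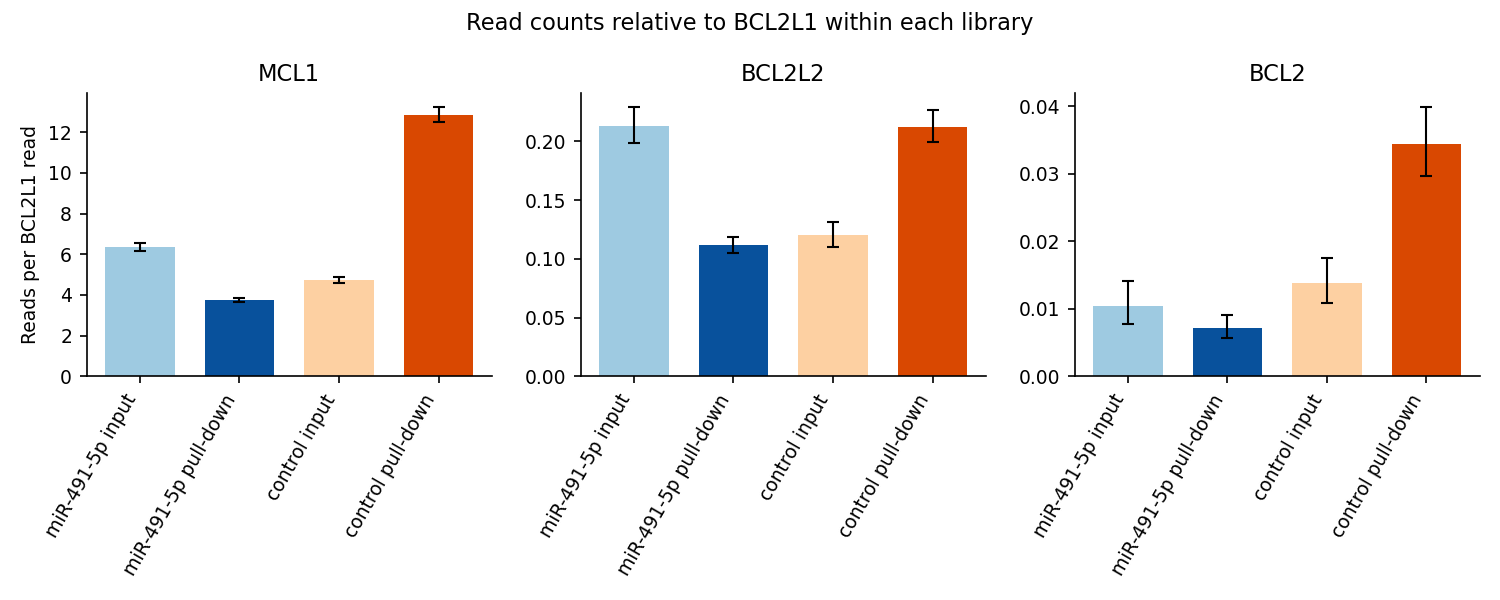
Reads of MCL1, BCL2L2 and BCL2 per read of BCL2L1 within each library (linear axes from 0, 1 bar per library), with 95% Wilson intervals for counting error. All 3 partners have their lowest ratio in the miR-491-5p pull-down, 3.75 for MCL1, but for BCL2L2 and BCL2 its interval overlaps that of an input.

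To ask whether the beads held these mRNAs with either miRNA, pull-down was tested against input over all genes with edgeR's quasi-likelihood test, the transfection being a block. This fit takes the 2 transfections, which had different miRNAs, as its replicates and has 1 residual degree of freedom. By Benjamini-Hochberg adjusted p under 0.05, 11.9% of genes were called and 0 of the 4 genes here. edgeR gave MCL1 0.66 with an adjusted p of 0.167, BCL2 0.72 with 0.176, BCL2L1 0.32 with 0.492 and BCL2L2 0.27 with 0.479. No unadjusted p was under 0.05, the lowest being 0.0562 for MCL1, and edgeR without the block also called 0 of the 4, with adjusted p from 0.165 to 0.438. The fit averages the 2 transfections, and the bead values of BCL2L1 have opposite signs in them.

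The genes whose profile over the 4 libraries was nearest to each member were found by the distance between log2 values, each gene centred on its own mean. For BCL2L1 these were ADCK1, a mitochondrial kinase-like gene, at a distance of 0.0439, KCNRG at 0.0744 and FASN, which encodes fatty acid synthase, at 0.107. Their enrichments were 1.26, 1.25 and 1.19, and 75 genes lay within 0.25 of BCL2L1. For MCL1 they were APOLD1 at 0.0627, NIPAL1 at 0.0674 and IPCEF1 at 0.0777, with enrichments of -0.82, -0.80 and -0.80, beside -0.93 for MCL1. Within 0.25 of MCL1 lay 83 genes. BCL2 had ISM1 at 0.239, PRSS23, which encodes a secreted protease, at 0.275 and OTULINL at 0.286, and only 1 gene within 0.25. BCL2L2 had MMS22L, a DNA repair gene, at 0.0246, NCOA7, a nuclear receptor coactivator gene, at 0.0265 and ZNF184 at 0.0345. Its profile was a common one, with 717 genes within 0.25.

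The wider network was described from 5 lists of 26 genes, of which 24 passed the count minimum. The 2 other anti-apoptotic relatives did not pass. BCL2A1 had 0 counts in both miR-491-5p libraries and 2 and 4 in the control's input and beads. BCL2L10 had 12 on the miR-491-5p beads, 2 in the control input and 0 elsewhere. Of the 24 genes, 0 were called enriched and 1 depleted, beside 4.46% and 5.32% of all genes. In the pull-downs 0 were called, beside 2.50% of all genes higher and 3.17% lower, and in the inputs 0, beside 1.24%. The median enrichment of the 24 was -0.14. With total counts, which raised the enrichment of the median gene by 0.18, 0 were called depleted, beside 3.51% of all genes. The median of the 24 was then 0.04. None of the 24 had an enrichment above that of BCL2L1, as 2.20% of all genes did. Of the 24, 1, VDAC2, had one below that of MCL1, as 6.41% of all genes did.

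The pore-forming effectors, which the anti-apoptotic proteins restrain, had a median enrichment of 0.28. Of the 3, 0 were called in any comparison, where 1.24% (inputs) to 18.6% (control beads) of all genes were called. BAX had an enrichment of 0.53, from a pull-down ratio of 0.21 and an input ratio of -0.32. BAK1 had 0.28 and BOK, a related effector, 0.16. On the beads BAX and BAK1 were below their input with both miRNAs, at -0.45 (miR-491-5p) and -0.97 (control) for BAX and -0.39 and -0.67 for BAK1. With total counts the miR-491-5p values were -0.13 for BAX and -0.07 for BAK1, with intervals that include 0. BOK was above its input with both, at 0.60 (0.44 to 0.76) and 0.44 (0.28 to 0.60).

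Of the 8 BH3-only genes, whose proteins bind the groove of the anti-apoptotic proteins, 0 were called in enrichment. Of all genes 4.46% were enriched and 5.32% depleted. The median of the 8 was -0.12, or 0.06 with total counts. BAD, whose protein binds BCL-xL, BCL-2 and BCL-w, had the highest enrichment, 0.81 (0.29 to 1.33), from a pull-down ratio of 0.76. PMAIP1, the gene for NOXA, which binds MCL-1, had the lowest, -0.54, with a pull-down ratio of -0.71. BCL2L11, the gene for BIM, had -0.47, HRK 0.41, BBC3 (the gene for PUMA) 0.27, BIK -0.15, BID -0.13 and BMF -0.11. The last 3 turned to 0.03, 0.05 and 0.07 with total counts. The intervals of BBC3, BIK, BID and BMF included 0, and those of HRK and BBC3 overlapped that of BAD. In the inputs BBC3 had -0.89 (-1.39 to -0.39, from 52 and 79 counts) and BMF 0.78, the lowest and the highest of the list. On the control beads BCL2L11 was called above its input, at 1.13, as 8.61% of all genes were, and BAD at -1.52 and BIK at -1.17 were called below, as 10.0% were. BIK was also called below its input on the miR-491-5p beads, at -1.31, where 4.96% of genes were. That call was lost with total counts, at -0.99, where 1.03% of genes were called lower. On the control beads BMF, at 1.00, was just under 2-fold and passed it with TMM, total counts and size factors from well-covered rows (1.03 to 1.14). These settings called 9.06%, 10.8% and 10.5% of all genes higher there. With total counts BMF (1.20) and BBC3 (1.04) also passed it on the miR-491-5p beads, where 10.1% of all genes were called higher.

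Genes that set the turnover of MCL-1 protein had a median enrichment of -0.22. Of these 5 genes 0 were called, beside 4.46% of all genes enriched and 5.32% depleted. FBXW7, a ubiquitin ligase subunit, had the value of largest size, -0.82, and USP9X, a deubiquitinase, had -0.35. FBXW7 stood at 0.91 on the control beads and 0.09 on the miR-491-5p beads, beside 0.98 and 0.05 for MCL1. Its control bead value too passed 2-fold with total counts (1.05) and with size factors from well-covered rows (1.03). These settings called 10.8% and 10.5% of all genes higher there. Of the 8 downstream genes 1 was depleted, as 5.32% of all genes were. This was VDAC2, which encodes a mitochondrial porin that binds BAK, at -1.10. Total counts gave it -0.92, so the call was lost. XIAP, a caspase inhibitor, had -0.85. Like FBXW7 and MCL1, XIAP was high on the control beads, at 0.86, and near its input on the miR-491-5p beads, at 0.01. The pull-down ratios of VDAC2 and XIAP were -0.94 and -0.67 and their input ratios 0.16 and 0.18. Of the 8 genes 7 had an enrichment below 0, as 49.9% of all genes did, and the interval of 1 of them, DIABLO, included 0. With total counts 5 of the 8 lay below 0, beside 36.2% of all genes.

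**Figure D5:**
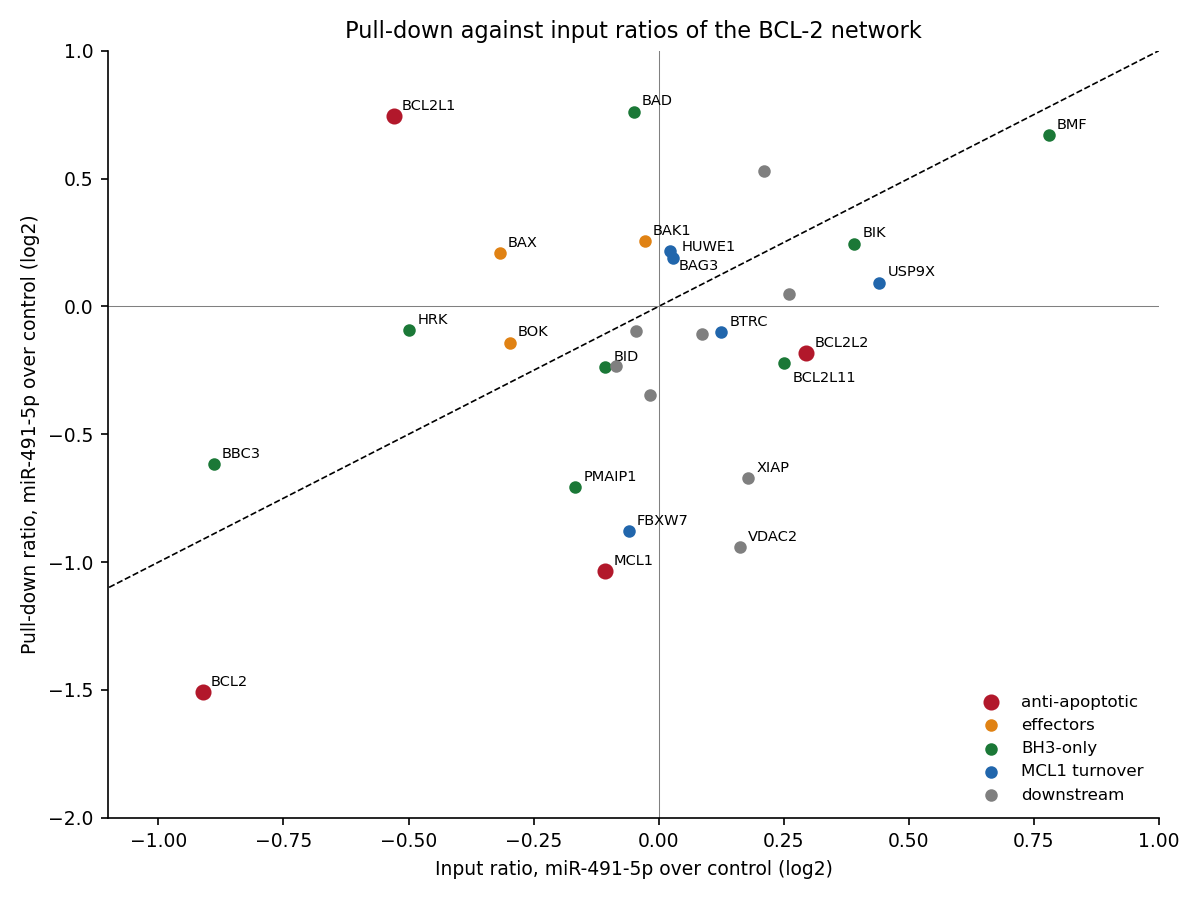
Pull-down ratio against input ratio (both log2, miR-491-5p over control) for the 4 anti-apoptotic genes and 24 network genes, coloured by list. The dashed line marks an enrichment of 0, and BCL2L1, at -0.53 in the inputs and 0.74 in the pull-downs, lies farthest above it.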

How the data were processed

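The authors deposited 1 table of whole-number read counts per gene, not normalised, counted with featureCounts 1.5.0-p1 against hg38 and the annotation of GENCODE release 24, per the file headers. Its command ignores strand and duplicates, counts reads singly and leaves out reads that lie on several genes or in several places. STAR and DESeq2 1.10.1 are named in the submitters' processing notes without a role. Counts were divided here by DESeq2 1.42.0 size factors, 0.957 and 0.778 for the inputs of miR-491-5p and the control and 1.24 and 1.13 for their pull-downs. The intervals are 1.96 standard errors from counts plus 0.5. edgeR 4.0.16 gave the test of pull-down against input. The alternatives were TMM, total counts, a pseudocount of 5, other count minimums and size factors from well-covered rows. Genes were named by their position in RefSeq GRCh38.p14, which named 41530 genes. TF matched a neighbouring locus and was left out of the hepatocyte markers. The calculations were tested on simulated counts. The named genes were the members, the 3 genes of nearest profile to each, overlapping genes, all effectors and BH3-only genes and the 2 of each other list with the largest absolute enrichment. The members and lists were chosen with earlier results of these data known.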

Additional observations from a re-analysis of the deposited data

Results flagged for a closer look

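BCL2L1 was above its input on the miR-491-5p beads, at 0.81, and below its input on the control beads, at -0.46 (log2). It drew attention because the single library pair of each transfection moved in the opposite direction. With 1 pair for each miRNA the difference was not tested. Among tested genes 705 (5.57%) had the same signs as BCL2L1 with both intervals excluding 0, and 1062 (8.39%) had the reverse.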

How the results depend on the processing

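Each group had 1 library, so no replicate could be left out. A pseudocount of 5 moved no ratio of the 4 genes beyond its interval. Adding overlapping genes, an alternative chosen after the data were seen, did not either. It adds few reads and does not restore those on shared bases, so it says little about them. Scaling by total counts shifted the median gene by 0.18 in enrichment, 0.16 in the pull-downs, 0.32 on the miR-491-5p beads and 0.14 on the control beads. With it BCL2L1 had an enrichment of 1.45, a pull-down ratio of 0.90 and bead values of 1.13 (now past 2-fold) and -0.32. MCL1 had -0.75, -0.88 (no longer past 2-fold), 0.37 and 1.12 (now past 2-fold). BCL2L2 had -0.028 in the pull-downs and 0.20 on the miR-491-5p beads, where its sign turned and its interval excluded 0, as it did not before. On the miR-491-5p beads BCL2 had 0.57 (0.02 to 1.11), an interval that now excluded 0 as well. Size factors from rows with at least 10 counts gave bead values of 0.92 and -0.34 for BCL2L1 and 0.16 and 1.10 for MCL1, and TMM gave 1.02 for MCL1 on the control beads. edgeR with the transfection as a replicate block gave pull-down over input values of 0.32 for BCL2L1, 0.66 for MCL1 and 0.27 for BCL2L2, and 0.35, 0.75 and 0.26 without the block, against means of both ratios of 0.18, 0.52 and 0.12. Labels give no replicate numbers. Over all exon bases the level was 1737 per kilobase for BCL2L1 and 211 for BCL2L2. Of all genes, total counts called 891 enriched and 446 depleted (66.6% enriched of calls, against 45.6%), 529 higher and 262 lower in the pull-downs (66.9% against 44.0%), 1307 higher and 129 lower on the miR-491-5p beads (91.0% against 51.8%), and 818 lower on the control beads (63.0% higher against 46.2%). With no count minimum, 1275 were enriched and 1302 depleted, 1175 and 1199 higher and lower in the pull-downs, 479 and 476 in the inputs, 2624 and 1023 on the miR-491-5p beads, and 2850 higher on the control beads. With a minimum of 10 these were 1094, 1137, 823, 807, 409 and 366, then 2098 higher on the miR-491-5p beads and 2480 on the control beads. The 24 network genes were scored under the same scalings after the data were seen. A called gene could not change direction, since scaling shifted the median gene by 0.32 at most. Uncalled genes did change sign. On the miR-491-5p beads 17 of the 24 lay below 0, and 9 with total counts, beside 60.2% and 37.4% of all genes. A lower minimum adds genes with few counts. Depth limits BCL2 most.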

Other observations

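CYCS, which encodes cytochrome c, whose release from mitochondria BCL-2 family proteins control, was named after its values were seen. It was called below its input with both miRNAs, at -1.22 on the miR-491-5p beads and -1.17 on those of the control. Of all genes 4.96% and 10.0% were called lower there. The enrichment of CYCS was -0.05. With total counts its bead values became -0.90, under 2-fold, and -1.03, still past it, and its enrichment 0.13. Total counts called 1.03% and 6.48% of all genes lower on these beads. HOMEZ, a homeobox gene on the opposite strand, overlaps the 5′ end of BCL2L2 but shares no exon base with it. HOMEZ had an enrichment of 1.35 (0.98 to 1.71), where BCL2L2 had -0.48. Its pull-down ratio was 1.42 and its input ratio 0.08.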
